A study of Homo sapiens with 4 samples.

Results

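Chromatin accessibility around 10 genes that set the threshold for cell death was examined in SKBR3 cells with and without the cytokine TWEAK. They were 9 genes of the larger BCL2 family, BCL2, BCL2L1, MCL1, BCL2A1, BCL2L11, BBC3, PMAIP1, BIK and BID, and the caspase-8 regulator CFLAR. The genes were taken by name from GENCODE v44, out of 19970 protein-coding genes. ATAC-seq peaks of the 4 libraries that overlapped by at least 1 bp were merged into 307691 sites, and the 420 sites within 100 kb of any annotated start of these genes were followed. The data describe a single line, SKBR3, which was established from a breast carcinoma and overexpresses HER2 through amplification of ERBB2. The comparison was between 2 untreated libraries and 2 libraries from cells given 10 ng/ml TWEAK for 48 h, with fresh TWEAK after 24 h. The growth protocol, which the labels repeat unchanged for both groups, gives 8 h of starvation in optimem before treatment and mentions neither a mock addition nor a batch. All 9 luminal marker genes, among them ERBB2, KRT8 and GRHL2, had a peak within 1 kb of a start in all 4 lists. Of 8 marker genes of leukocytes, endothelium and fibroblasts, 4 also had one in all 4 lists, so a peak at a start does not by itself identify the cell.

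TWEAK binds the receptor Fn14 and can signal through NF-kB and through the kinases that feed AP-1. BCL2, BCL-XL (from BCL2L1), MCL1 and A1 (from BCL2A1) hold back BAX and BAK, which would otherwise permeabilise the outer mitochondrial membrane. The BH3-only proteins BIM (from BCL2L11), PUMA (from BBC3), NOXA (from PMAIP1), BIK and BID counter them, with BID linking death receptors to mitochondria after cleavage by caspase-8. CFLAR encodes c-FLIP, which binds FADD and caspase-8 at death receptors and limits caspase-8 activation. NF-kB is known to induce CFLAR, BCL2L1 and BCL2A1 in many cell types.

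A site with a peak in both TWEAK lists and neither untreated list was called gained, and the opposite pattern was called lost. Of the 28 gained sites near these genes, 9 held the 10-base NF-kB consensus and the other 4 shown held an AP-1 match on either strand, no more than 100 bp from the middle of the peak that ranked best at the site. Their sequences are shown because these stretches of DNA were called accessible in the TWEAK lists only and carry an NF-kB or AP-1 motif. TWEAK can signal through both, but the activity of either pathway was not measured in these data. The plus strand of hg38 is given 5′ to 3′, and capitals mark the matches, with AP-1 searched as TGACTCA or TGAGTCA, which are reverse complements of each other.
BCL2A1, 5′ of the gene, NF-kB, chr15:79973991-79974050: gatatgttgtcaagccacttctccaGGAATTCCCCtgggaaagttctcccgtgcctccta
BCL2A1 intron, NF-kB, chr15:79966073-79966132: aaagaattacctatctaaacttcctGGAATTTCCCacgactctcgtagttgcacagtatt
CFLAR intron, NF-kB, chr2:201123883-201123942: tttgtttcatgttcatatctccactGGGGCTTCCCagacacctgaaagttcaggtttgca
CFLAR intron, NF-kB, chr2:201127033-201127092: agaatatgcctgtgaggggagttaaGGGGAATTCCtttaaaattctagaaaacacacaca
CFLAR internal start, NF-kB, chr2:201149233-201149292: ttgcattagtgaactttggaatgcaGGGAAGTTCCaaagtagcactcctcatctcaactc
BCL2, 3′ of the gene, NF-kB, chr18:63041278-63041337: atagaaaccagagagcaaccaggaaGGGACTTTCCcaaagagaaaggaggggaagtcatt
BCL2 intron, NF-kB, chr18:63262659-63262718: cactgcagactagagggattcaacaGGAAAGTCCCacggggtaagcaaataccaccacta
BCL2L11 window, ACOXL intron, NF-kB, chr2:111035918-111035977: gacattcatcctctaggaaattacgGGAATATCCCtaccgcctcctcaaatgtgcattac
BBC3 window, C5AR1 start, NF-kB, chr19:47297407-47297467: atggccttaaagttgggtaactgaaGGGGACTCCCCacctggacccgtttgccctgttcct
BCL2 internal start, AP-1, chr18:63161888-63161944: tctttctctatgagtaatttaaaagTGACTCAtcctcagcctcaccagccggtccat
MCL1 window, ENSA intron, AP-1, chr1:150613660-150613716: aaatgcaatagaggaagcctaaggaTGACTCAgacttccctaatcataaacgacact
PMAIP1, 3′ of the gene, AP-1, chr18:59985581-59985637: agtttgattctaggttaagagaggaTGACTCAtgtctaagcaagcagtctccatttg
BID window, MICAL3 intron, AP-1, chr22:17804848-17804904: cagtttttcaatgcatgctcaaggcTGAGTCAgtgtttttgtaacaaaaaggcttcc
A site 5′ of BID that had a peak in every list is shown as well, because it had the larger difference of the 2 shared sites near these genes that held both motifs and ranked higher in both TWEAK libraries. The other lay in an intron in the BBC3 window, at chr19:47315249-47315763.
BID, 5′ of the gene, NF-kB and AP-1, chr22:17781796-17781945: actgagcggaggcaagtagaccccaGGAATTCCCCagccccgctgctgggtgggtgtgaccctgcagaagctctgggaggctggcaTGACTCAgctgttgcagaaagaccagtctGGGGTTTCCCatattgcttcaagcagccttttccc
A match describes the letters only and does not show that a factor was bound.

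The 4 lists held 208329 and 228644 peaks in the untreated and 218335 and 195315 in the TWEAK libraries. Read depth was not given, and the number of reads stacked at a peak (its pileup), recovered from the deposited values, was set against a background of 3.59 and 2.24 in the untreated and 2.63 and 1.85 in the TWEAK libraries. Because these values depend on depth, each peak was compared through its percentile within its own list. In bulk libraries, a site open in fewer cells and a site less open in each cell cannot be told apart.

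Around the 10 genes, the untreated lists held 314 and 313 peaks and the TWEAK lists 319 and 296. The means were 313.5 ± 0.707 and 307.5 ± 16.3 (SD, n = 2 each), and the difference of -6 gave p = 1 in an exact two-sided permutation test. With 2 libraries against 2, this test cannot give a p below 0.333. The words higher and lower are therefore used below for ranks whose groups did not overlap, and not for a passed test.

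Gained sites made up 6.67% of the sites near these genes, 28 of 420, against 3.6% of all sites. Lost sites made up 3.33%, 14 of 420, against 3.79% of all sites. The larger gained share was not found without TWEAK replicate 2, and the excess was small without TWEAK replicate 1. When a TWEAK library is left out, a peak in the other TWEAK list alone is enough for a gain. Without TWEAK replicate 2, 11.1% of the sites near the genes were gained against 11.6% of all sites. Leaving out TWEAK replicate 1, untreated replicate 1 or untreated replicate 2 gave 10.1%, 10.0% and 10.9% near the genes, against 9.09%, 6.54% and 7.63% of all sites.

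**Figure D1:**
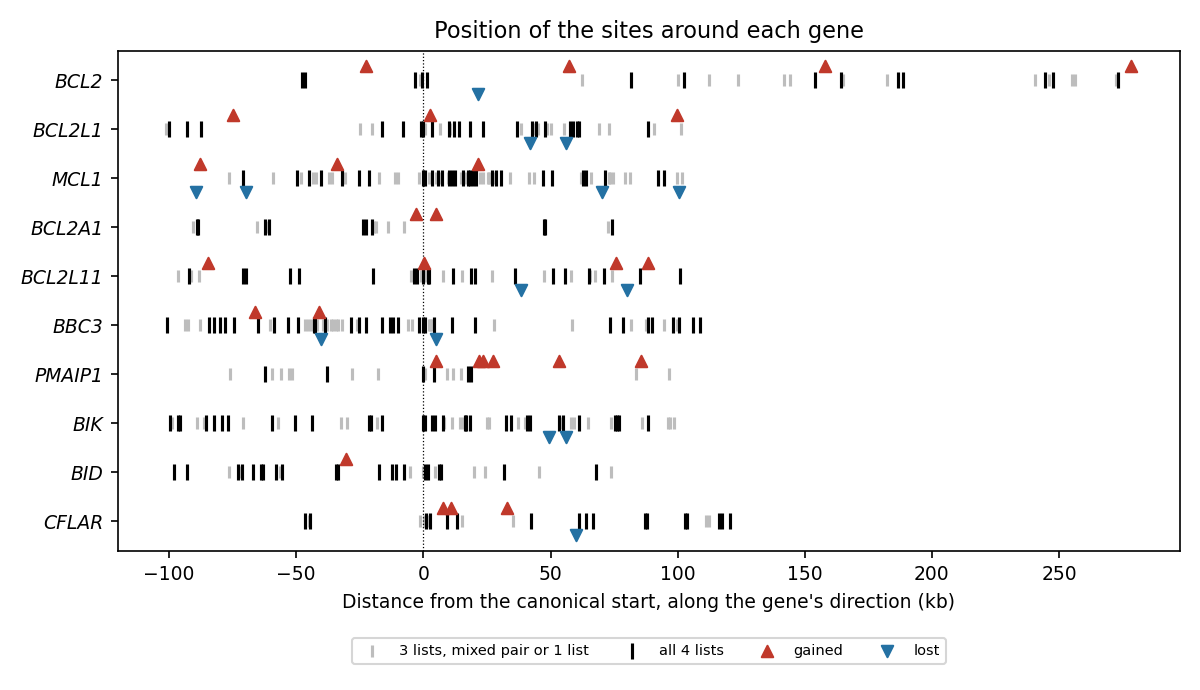
Position of the 420 sites around the 10 genes, as distance in kb of the site centre from the start of the Ensembl canonical transcript, with positive values in the direction of transcription. Each mark is a site, and the 6 gained sites of PMAIP1 (red upward triangles) all lay on its 3′ side, while lost sites are blue downward triangles.

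Sites with a peak in all 4 lists, called shared, numbered 207 of 420, or 49.3% against 42.8% of all sites. In 38 of the 207 shared sites (18.4%) both TWEAK percentiles lay above both untreated ones, against 15.8% of all shared sites. In 71 (34.3%) both lay below, against 35.4%. Both shares near the genes lay close to the background, and the excess of lower over higher ranks was also that of all shared sites. Both turned round when peaks under 5 times the background were left out, to 63 higher and 35 lower sites near the genes and to 30.2% and 19.7% of all shared sites. The median percentile of the shared sites near the genes was 76.3 and 75.8 in the untreated and 75.0 and 70.7 in the TWEAK libraries. That difference of -3.21 points (exact permutation p = 0.333, the smallest possible) stood beside -1.81 points over all shared sites. Under the same restriction it turned to 1.81 points, beside 2.33 over all shared sites. It was -0.0983 points over the shared sites nearest to one of the genes and -1.83 within 50 kb.

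More gained than lost sites were found near 7 of the 10 genes, against 31.4% of the 19708 protein-coding genes with a peak in their window. MCL1 and BIK had more lost than gained sites, an order found in 39% of protein-coding genes, and BBC3 had 2 of each. By role, the 4 anti-apoptotic genes had 12 gained and 7 lost sites among 168, the 5 BH3-only genes 13 and 6 among 223, and CFLAR 3 and 1 among 29. The gains were thus spread over genes that restrain death and genes that promote it. Of the 28 gained sites, 18 had one of the 10 genes as the nearest protein-coding gene, 11 lay in introns, 11 between genes and 6 within 1 kb of a start.

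**Figure D2:**
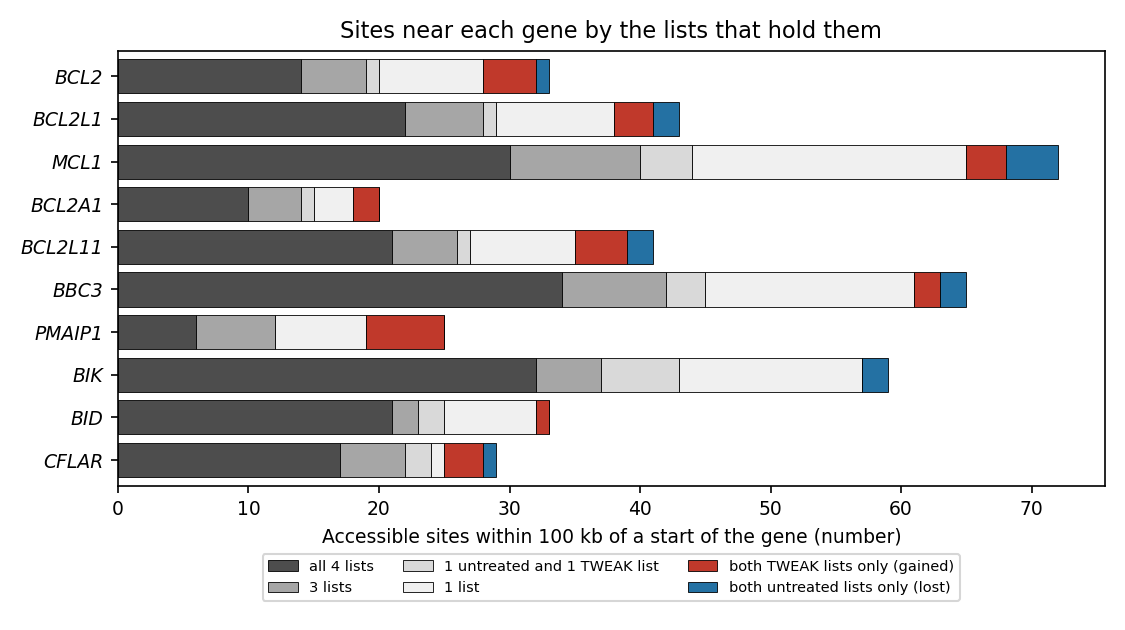
Number of accessible sites within 100 kb of each gene, split by the lists that held them. Red segments are gained sites and blue segments lost sites, with 6 gained and 0 lost at PMAIP1 and 0 gained and 2 lost at BIK.

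Most gained sites were weak. Their lower percentile of the 2 TWEAK libraries ranged from 2.52 to 74.1 with a median of 31.2, and pileups ranged from 7 to 52 reads. In 8 of the 28, both percentiles were above the 50th, against 1817 of the 11080 gained sites of the genome. A neighbouring untreated peak lay within 500 bp of 6 gained sites, and 22 had none. Of the 14 lost sites, 7 had no TWEAK peak within 500 bp, and none of those 7 was above the 50th percentile in both untreated libraries.

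**Figure D3:**
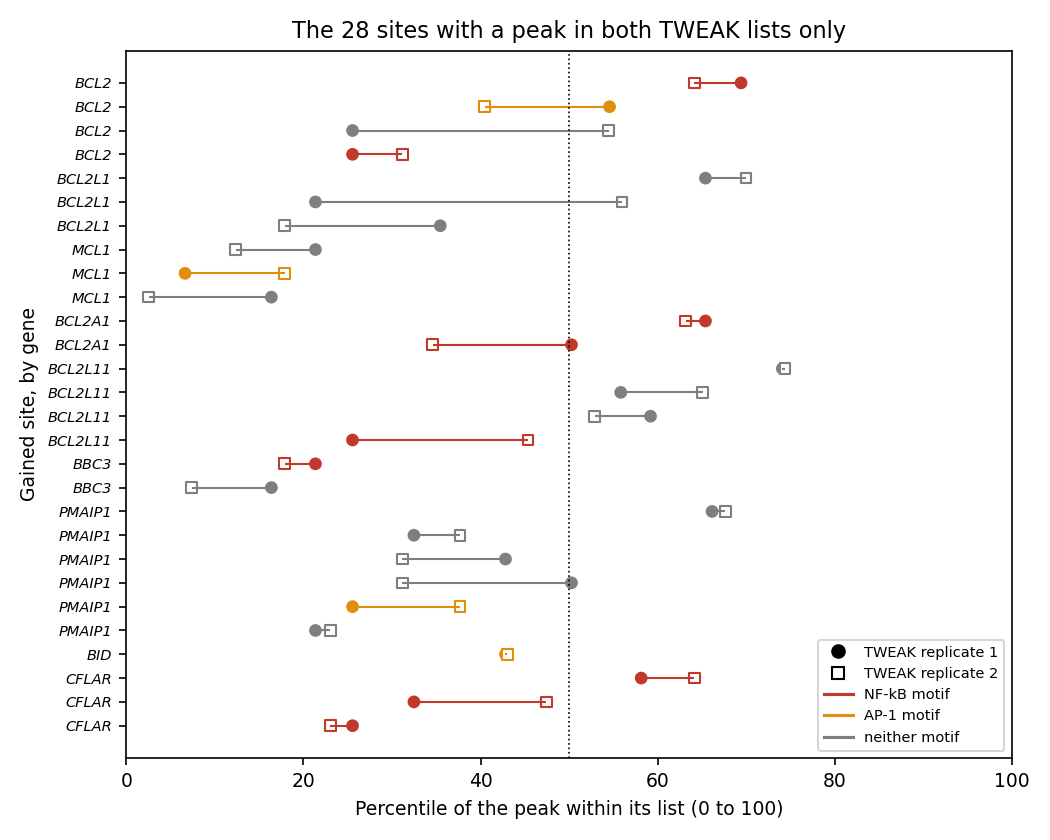
Percentile of each of the 28 gained sites in TWEAK replicate 1 (circles) and TWEAK replicate 2 (squares) within its own list, ordered by gene. Colour shows an NF-kB match, an AP-1 match or neither within 100 bp of the centre, and the 8 sites to the right of the dotted line at 50 in both libraries include 3 with an NF-kB match.

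BCL2A1, which encodes the anti-apoptotic protein A1 and is best known from blood cells, had no peak within 1 kb of either of its starts in any list. Both of its gained sites held an NF-kB match. The stronger one, at chr15:79973767-79974273, lay 2571 bp 5′ of the gene and reached the 65.4 and 63.2 percentiles with 37 and 30 reads. No untreated peak was closer than 4157 bp. The other, in an intron at chr15:79965818-79966331, reached the 50.3 and 34.6 percentiles with 23 and 14 reads and no untreated peak closer than 12099 bp. No lost site was found among the 20 sites of this window, although the number of peaks, 12 and 17 untreated and 18 and 14 with TWEAK, overlapped between groups.

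BCL2, the founding member of the family, had 4 gained and 1 lost site among 33. Its strongest gained site, at chr18:63041044-63041545, lay between genes and 96866 bp from the nearest BCL2 start, near the edge of the window. The percentiles there were 69.4 and 64.1, with 43 and 31 reads and no untreated peak closer than 2734 bp. This site held the NF-kB match and also a FOXO match, searched as GTAAACA. A gained site at an internal BCL2 start, chr18:63161654-63162175, held an AP-1 match at the 54.6 and 40.5 percentiles. The lost site, in an intron at chr18:63298108-63298622, was weak, at the 19.8 and 37.4 percentiles, with no TWEAK peak within 19289 bp. None of its 14 shared sites was higher with TWEAK and 6 were lower.

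BCL2L1, which encodes BCL-XL, had 3 gained and 2 lost sites among 43. The strongest gained site, at chr20:31797572-31798088, was at the 65.4 and 70.0 percentiles with 37 and 38 reads and no untreated peak closer than 12154 bp. It lay 73583 bp from a BCL2L1 start in an intron, with MYLK2 as the nearest gene, and held neither an NF-kB nor an AP-1 match. An intronic lost site at chr20:31680737-31681293, at the 51.7 and 56.4 percentiles, had a TWEAK peak 305 bp away. The shared site with the largest negative difference near any of the genes was also in a BCL2L1 intron, at chr20:31685838-31686431. Its percentile was 54.2 and 59.3 in the untreated and 38.1 and 12.3 in the TWEAK libraries, with 30, 23, 17 and 9 reads. Of 22 shared sites, 1 was higher and 9 were lower.

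MCL1, whose short-lived product protects mitochondria, had the densest window, 72 sites, with 3 gained and 4 lost. None of those 7 was above the 50th percentile in both libraries, and for 17 of the 72 sites MCL1 was the nearest gene. The AP-1 match shown for this window lay in such a weak site, at the 6.62 and 17.9 percentiles. Peak numbers near MCL1 were 59 and 52 untreated and 51 and 43 with TWEAK, so that both TWEAK values lay below both untreated ones, an order found in 24.2% of protein-coding genes. BCL2L1, with 32 and 34 against 30 and 31, was the only other of the 10 with that order. A shared site nearest to ECM1, at chr1:150528642-150529149, went from the 87.0 and 84.4 to the 62.1 and 64.1 percentiles, with 119 and 69 reads untreated and 33 and 31 with TWEAK. The 3 lost sites of the window with the highest lower percentile were at chr1:150478893-150479398, chr1:150649231-150649737 and chr1:150668193-150669149. Each had a TWEAK peak within 448 bp, and none reached the 50th percentile in either library.

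PMAIP1, which encodes NOXA, an antagonist chiefly of MCL1, had the most gained sites of the 10 genes. It was the nearest gene for all 25 sites of its window, of which 6 were gained and 0 lost. At least 6 gained and no lost sites were found in 0.31% of protein-coding genes, a threshold set after these counts were seen. The number of peaks was 13 and 11 untreated and 19 and 19 with TWEAK. Both TWEAK values lay above both untreated ones in PMAIP1 alone of the 10 genes, and in 9.28% of protein-coding genes. All 6 gained sites lay between genes on the 3′ side, from 4603 to 85304 bp from the nearest start. The strongest, at chr18:59927156-59927656, was at the 66.2 and 67.6 percentiles with 38 and 35 reads, and no untreated peak lay within 8207 bp. Beside it, at chr18:59921537-59922086 and chr18:59923068-59923571, a pair of weaker gained sites reached 50.3 and 31.2 and 32.5 and 37.7. Only the farthest of the 6 held an AP-1 match, none held an NF-kB match, and 1, at chr18:59904639-59905172, had an untreated peak 159 bp away. At its promoter the groups overlapped, with percentiles of 89.0 and 91.6 untreated and 91.4 and 91.5 with TWEAK.

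BCL2L11, which encodes BIM, the activator that binds every anti-apoptotic member, held the highest-ranked gained site of all. At chr2:111208936-111209453, 85190 bp 3′ of the nearest start, the percentiles were 74.1 and 74.4 with 52 and 45 reads and no untreated peak closer than 2703 bp. A second gained site on the same side, at chr2:111196413-111196929, reached 55.8 and 65.1, with an untreated peak 1185 bp away. Neither held an NF-kB or AP-1 match. The third above the 50th percentile, at chr2:111121108-111121745 beside the BCL2L11 start, had an untreated peak only 8 bp away. The window had 4 gained and 2 lost sites among 41, and its promoter stayed among the highest ranks, at 96.3 and 96.9 untreated and 95.9 and 95.2 with TWEAK. A shared site at chr2:111050782-111051400, in an intron and nearest to ACOXL, went from 47.4 and 28.8 to 11.2 and 7.37, with 25, 11, 10 and 8 reads.

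BID was accessible at the same places in both groups for most of its window, with 1 gained and 0 lost among 33 sites, but one site outside the gene differed more than most. The shared site shown above, at chr22:17781656-17782204 between genes and 6886 bp 5′ of a BID start, stood at the 67.2 and 66.0 percentiles untreated and at 92.2 and 93.6 with TWEAK. The reads were 46 and 29 untreated and 142 and 126 with TWEAK. The groups did not overlap, and the means differed by 26.3 points. Of its 21 shared sites, 6 were higher and 3 lower.

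BBC3, which encodes PUMA, a BH3-only protein known as a p53 target, had 65 sites, 2 gained and 2 lost, and BBC3 was the nearest gene for 16 of them. One lost site was strong. At chr19:47226037-47226538, 651 bp from an internal start, the untreated percentiles were 92.6 and 91.1 with 179 and 109 reads, and no TWEAK list had a peak there. The neighbouring peak that all 4 lists held, 424 bp away, moved the other way, from 93.0 and 92.3 untreated to 95.5 and 94.8 with TWEAK. The lost site held an AP-1 match and a match to the TFAP2 motif GCCNNNGGC. A shared site across the outermost BBC3 start, chr19:47232456-47233263, went from 38.002 and 46.5 to 54.6 and 65.1, with 20, 16, 26 and 32 reads. Farther 5′, nearest to CCDC9, one shared site at chr19:47253346-47253892 went from 44.04 and 40.8 to 72.7 and 65.1, and another at chr19:47259437-47260522 went from 55.3 and 43.8 to 29.2 and 12.3. Over the whole BBC3 window, 10 of 34 shared sites ranked higher and 16 lower, and an AP-1 match was held by 4 of the 10 and 0 of the 16. Over all shared sites, 22.1% of the higher and 5.999% of the lower ones held one.

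BIK, a BH3-only protein of the endoplasmic reticulum, was the only gene with no gained site, and it had 2 lost sites among 59. It was the nearest gene for 9 of these sites. Both lost sites were weak, and 6 of its 32 shared sites were higher and 12 lower. Its promoter is described with the others.

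CFLAR had 3 gained sites among 29, all within the gene, and all 3 held an NF-kB match. The strongest, at chr2:201149001-201149511, lay 50 bp from an internal start and reached the 58.1 and 64.1 percentiles with 29 and 31 reads, while no untreated peak was closer than 1913 bp. The others, at chr2:201123690-201124226 and chr2:201126803-201127320, reached 32.5 and 47.4 and 25.5 and 23.03, with untreated peaks 1025 and 1001 bp away. CFLAR was the only gene whose shared sites had a positive median difference, 2.38 points over 17 sites, of which 5 were higher and 3 lower. CASP10 and CASP8, the initiator caspases encoded beside CFLAR, shared this window. At chr2:201182716-201183273, within 1 kb of a CASP10 start, percentiles went from 15.1 and 28.8 to 53.2 and 51.2, with 13, 11, 25 and 21 reads and an NF-kB match. At chr2:201218684-201219234, an exonic site nearest to CASP8, they went from 44.04 and 22.8 to 53.2 and 54.5, with an AP-1 match. The 1 lost site was at the 2.13 and 3.28 percentiles.

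**Figure D4:**
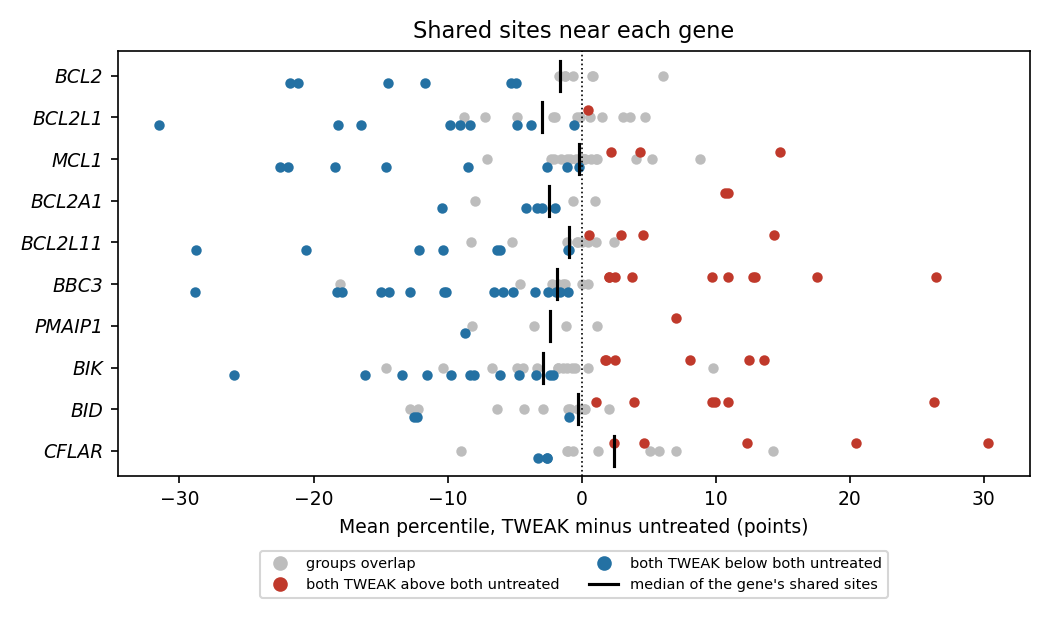
Difference of the mean percentile, TWEAK minus untreated in points, for the 207 shared sites near each gene, with a black bar at each gene's median. Red points have both TWEAK percentiles above both untreated ones and blue points below; the medians lay below 0 for 9 genes and at 2.38 for CFLAR.

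NF-kB or AP-1 matches were held by 13 of 28 gained sites (46.4%), 2 of 14 lost (14.3%), 16 of 38 shared higher (42.1%) and 6 of 71 shared lower sites (8.45%). Over all sites the shares were 34.1%, 8.96%, 32.9% and 9.79%. NF-kB alone was found in 32.1% of the gained sites near the genes, against 20.1% of all gained sites and 6.21% of all sites. AP-1 was found in 14.3% of them, against 16.6% and 9.02%. The TFAP2 motif was in 0 of 28 gained and 6 of 14 lost sites, where all gained and all lost sites of the genome had it in 8.79% and 12.4%. Over the whole peak it was in 2 of 28 gained and 8 of 14 lost sites, against 15.2% and 20.7%. The NF-kB motif was then in 11 of 28 gained and 3 of 14 lost sites, against 26.7% and 10.6%. FOXO matches were in 4.52% of the 420 sites and 5.59% of all sites. The groups are small, several sites share a gene, and median GC content was 43.9% in the gained and 53.1% in the lost sites, a difference whose part in the motif shares was not tested.

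Promoters were compared through the peak that overlapped, or else lay nearest within 1 kb of, the start of the canonical transcript. A peak was present in all 4 lists at 9 of the 10 genes, BCL2A1 being the exception. Both TWEAK percentiles were below both untreated ones at 5 of the 9 and above at 0, against 35.2% and 7.56% of the 14068 protein-coding promoters with a peak in every list. MCL1 had the highest rank, at 98.8 and 97.4 untreated and 97.8 and 98.0 with TWEAK, with 379, 208, 253 and 206 reads. The groups overlapped there, as they did at BCL2L1, with 83.1 and 85.3 against 89.4 and 82.0.

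BIK was ranked lower in both TWEAK libraries. Its promoter peak, at chr22:43110445-43110975, was at the 61.1 and 63.0 percentiles untreated and at 44.9 and 27.3 with TWEAK, with 37, 26, 20 and 12 reads. The mean went from 62.0 ± 1.33 to 36.1 ± 12.4 (SD, n = 2 each), a difference of -25.9 points with an exact permutation p of 0.333. Without TWEAK replicate 2 the BIK difference was -17.1 points, and without TWEAK replicate 1 it was -34.7. BID had a similar difference, -27.1 points, from 40.2 and 61.8 to 35.4 and 12.3, but the peaks compared were not the same in each list, since that of untreated replicate 2 lay 291 bp from the start and the others overlapped it. The best-ranked peak within 1 kb of the BID start was at 64.0 and 61.8 against 53.2 and 66.8, and the groups then overlapped, while BIK, at 51.8 and 27.3 with TWEAK, was still lower. With only peaks of a -log10 p of at least 5, the BID difference turned to 2.90 points, and with ranks taken among shared sites alone it was -0.0562. It was -15.6 points without TWEAK replicate 2 and -16.3 without untreated replicate 2.

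At BCL2 the promoter moved from 79.4 and 77.7 to 76.6 and 70.0, and at BCL2L11 and BBC3 the differences were -1.01 and -0.993 points. The BCL2 difference of -5.25 points was -1.95 without TWEAK replicate 2 and -8.55 without TWEAK replicate 1, and -2.45 with only peaks of at least 5 times the background. At BCL2L11 it was -0.645 without TWEAK replicate 2, and at BBC3 -0.384 without TWEAK replicate 2, -0.639 without untreated replicate 1 and -1.60 without TWEAK replicate 1. The BBC3 difference also turned to 0.208 with only peaks of a -log10 p of at least 5. At CFLAR the values were 67.8 and 73.7 untreated and 73.6 and 78.3 with TWEAK, and the groups overlapped. The TWEAK replicate 2 peak lay 731 bp from the start. The difference of 5.17 points was 2.21 without untreated replicate 1, 2.85 without TWEAK replicate 2 and 8.13 without untreated replicate 2. It was 8.75 with only peaks of a -log10 p of at least 5, and 11.7 with only peaks of at least 5 times the background. By the best-ranked peak within 1 kb, CFLAR was at 76.6 and 75.3 against 78.4 and 78.3, a difference of 2.38 points, and was the 1 promoter of the 9 with both TWEAK values above both untreated ones.

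**Figure D5:**
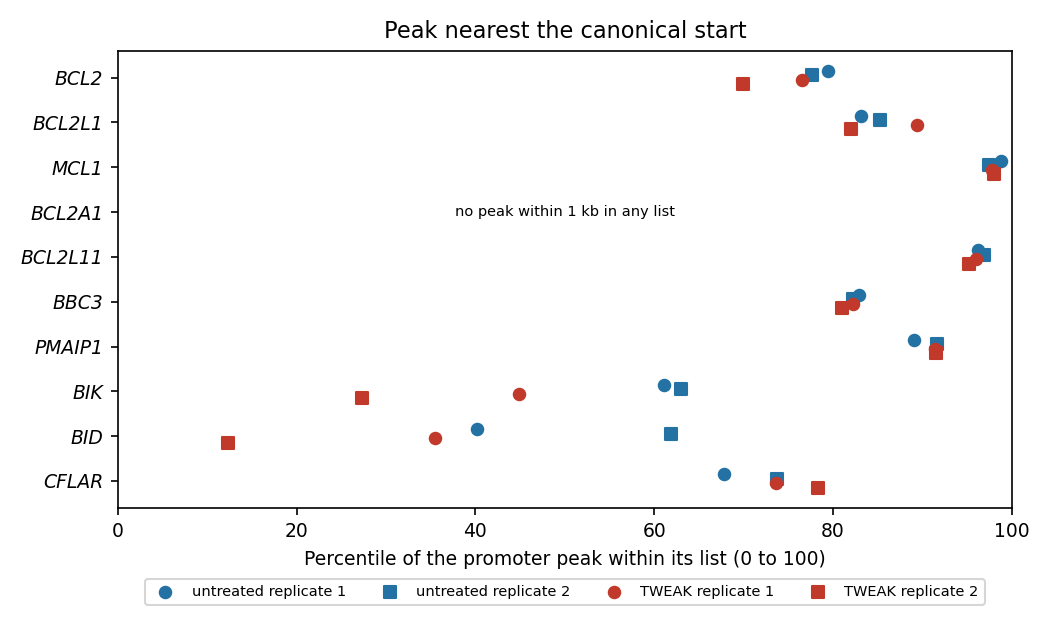
Percentile within its own list of the peak nearest the canonical start of each gene, in the 2 untreated (blue) and 2 TWEAK (red) libraries, with circles for replicate 1 and squares for replicate 2. Both TWEAK values lay below both untreated ones at BCL2, BCL2L11, BBC3, BIK and BID, although at BID the peaks compared differed between lists and the order was lost with the best-ranked peak. BCL2A1 had no peak, and MCL1 and BCL2L11 lay above 95 in all 4 libraries.

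Other genes of cell death were set beside them. The 15 other genes of the mitochondrial pathway, which include BAX, BAK1, APAF1 and the executioner caspases, had 17 gained (2.55%) and 23 lost sites (3.45%) among 667. The 8 further BCL2 family genes among them were BAX, BAK1, BOK, BAD, BMF, HRK, BCL2L2 and BCL2L10. They had 7 gained (1.65%) and 16 lost sites (3.77%) among 424, so that near these 8 lost sites outnumbered gained ones. More sites were gained than lost near 4 of the 15 and lost than gained near 7. XIAP, an inhibitor of caspases and a known NF-kB target, had 5 gained and 0 lost. The 7 genes of the death receptor pathway had 14 gained (6.86%) and 5 lost sites (2.45%) among 204, and 4 had more gained than lost sites and none the opposite. FAS, a death receptor, had 5 gained and 0 lost among 12 sites. Of these 204 sites, 26 were also among the 420, through CASP8 and CASP10 beside CFLAR. CASP10 is among the 4 genes with more gained than lost sites, and its 3 gained sites are those of CFLAR, counted again. These counts were not tested against each other.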

How the data were processed

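According to the methods and the submitters' processing notes, the authors trimmed reads with Trimmomatic, mapped them to hg38 with Bowtie2, removed duplicates with Picard and called peaks for each library with MACS2. Versions and settings are not given in the sources used here. The deposited value of each 501 bp peak was read from the values as a -log10 p-value, uncorrected. Every value equalled a Poisson tail for a whole-number pileup against 1 background per list (largest relative error over all values 5.07e-06), and counting by the other convention would shift each pileup by 1. Presence in a list depends on depth.

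Peaks on chromosomes 1 to 22 and X were merged, and 0 lay past a chromosome end of the reference. Sites were assigned by any GENCODE v44 start. Python 3.11.15 with scipy 1.17.1 was used, with exact two-sided permutation tests over libraries. Merging and ordering were tested on simulated data. DiffBind needs reads and was not run. The genes and lists were chosen with earlier results of these data known. Named sites were the 6 gained and 6 lost with the highest lower percentile and the 5 shared sites with the largest rise and fall among those whose groups did not overlap. Other sites given with values were chosen after their values were seen. The methods call cell line replicates biological, but no label ties a library to a separate culture, so p-values measure the spread between these libraries. Replicate deviations of the same number had a correlation of -0.00606 over shared sites. With 2 libraries a group, this value cannot show whether libraries of the same number were handled together, and the labels do not say.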

Additional observations from a re-analysis of the deposited data

How the results depend on the processing

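With 2 libraries a group, no p could pass 0.05, and presence in a list depends on depth, so values near a list's floor carry little weight. The difference in peaks, -6, became 13 with a -log10 p of at least 5, 4 when only sites nearest to one of the genes were kept, and 24 with pileups of at least 5 times the background (this setting, the neighbour setting and the best-ranked promoter peak were added after seeing the data). Leaving out one library gave -17.5 to 5.5. The 28 gained sites became 17 within 50 kb and 18 with nearest sites only, and 39 to 46 without one library. The gained share near the genes was 6.8% within 50 kb and 9.73% with nearest sites only, against 3.6% of all sites. It was 8.51% at -log10 p of at least 5 and 7.76% at 5 times the background, against 4.82% and 5.90% of all sites. The 14 lost sites became 7 within 50 kb, 6 at -log10 p of at least 5, 5 with nearest sites only, 3 at 5 times the background, 7 with no peak of the other treatment within 500 bp, and 26 to 49 without one library. Shares over all sites moved too: the lost share near the genes was 1.82% at -log10 p of at least 5, 0.932% at 5 times the background and 6.30% to 12.4% without one library, against 3.36%, 2.33% and 6.56% to 15.9% of all sites. The 38 higher shared sites became 19 with nearest sites only, 63 at 5 times the background and 52 to 78 without one library, and the 71 lower ones 41 within 50 kb, 25, 35 and 89 to 126. With nearest sites only, 22.4% of the shared sites were higher and 29.4% lower, against 15.8% and 35.4% of all shared sites. At 5 times the background the shares were 34.1% and 18.9%, against 30.2% and 19.7%. Within 50 kb, 33.1% were lower, against 35.4%. The rank difference of -3.21 turned to 1.81 at 5 times the background (2.33 over all shared sites), shrank to -0.0983 with nearest sites only, -0.588 at -log10 p of at least 5 and -1.83 within 50 kb, and was -5.97 to -0.348 without one library. Among the promoters, BBC3 turned to 0.208 at -log10 p of at least 5, 1.98 at 5 times the background and 0.132 when ranked among shared sites, BID to 2.90 and 7.59 under the first 2 of these and to -0.0562 under the third, and MCL1 to 0.112 at 5 times the background. Leaving out one library gave -0.845 to 0.499 at MCL1, -0.176 to 2.45 at PMAIP1 and -2.20 to 5.20 at BCL2L1. Searching the whole peak raised the motif shares of the 420 sites from 10%, 9.76%, 4.52% and 15.2% to 16.9% for NF-kB, 15% for AP-1, 8.57% for FOXO and 27.6% for TFAP2, and those of all sites to 13.2%, 13.7%, 9.65% and 20.8%. The cause was not tested, beyond the fewer sites or larger windows that a setting itself brings. With a replicate block the differences stayed at -6 and -3.21 (exact sign-flip p = 1 and 0.5).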
